A study of Mus musculus with 8 samples.

Results

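The adenylyl cyclases are the enzymes that make cyclic AMP (cAMP) from ATP. The genes described here are Adcy1, Adcy2, Adcy3, Adcy5, Adcy6, Adcy7, Adcy8 and Adcy9, which code for membrane-bound forms. They were taken by name, with no threshold on any measured value, and all 8 were present among the 17362 genes of the deposited table. Adcy4, another membrane-bound form, and Adcy10, the soluble form, were also in the table and are given only where they bear on a result.

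The data were single nucleus RNA-seq of cultured, hand-picked pancreatic islets from wild type (WT) mice and from mice with a whole-body knock-in of Med14 S983A. Med14 is the scaffold subunit of Mediator, and S983A replaces one of its serines by alanine. Islets of each genotype were untreated (CON), exposed to forskolin (FSK) for 16 h, or exposed to 10 nM Exendin-4 (Ex-4), an agonist of the GLP-1 receptor, for 16 h. The 6 groups were thus WT CON, WT FSK, WT Ex-4, mutant CON, mutant FSK and mutant Ex-4. The FSK dose used on islets and the age and sex of the mice are not given in the sources used here, and the mutant animals are listed on a C57BL/6J background. The knock-in was carried by every cell of the mutant animals, so beta cell and non-beta cell consequences cannot be told apart. The S983A change leaves the Med14 gene in place, and gene counts therefore do not check the genotype. Nuclei of all 6 groups were mixed in each of 8 sublibraries, and the table gives every group 1 pooled column per cell type, which makes 54 columns for 9 cell types. No group was replicated, no test was made, and group cannot be told apart from islet preparation or barcoding well. Intervals are 95% intervals for counting error only.

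Membrane adenylyl cyclases are switched on by the stimulatory G protein Gs, which receptors such as the GLP-1 receptor engage, and they differ in what else controls them. Adcy1, Adcy3 and Adcy8 are linked to calcium and calmodulin, Adcy2, Adcy4 and Adcy7 can be stimulated further by G protein beta-gamma subunits, and Adcy5 and Adcy6 are inhibited by Gi and by calcium. Forskolin binds the catalytic core of the membrane forms directly, and Adcy9 is known for its poor response to it. In beta cells the cAMP they make acts through protein kinase A (PKA) and Epac to raise insulin secretion and through CREB to change transcription, and in delta cells cAMP raises somatostatin release.

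Values are counts per 10000 counts of a column (CP10K). Summed counts per group ran from 3652805 to 4085574. Beta cell columns held 1915006 to 3094377 counts, alpha cell columns 269394 to 810127 and delta cell columns 362410 to 631433. Ratios were therefore limited to these 3 cell types, and genes in the 11 of 54 columns with under 20000 counts are given as counts, although these columns do enter the means and ranges by which cell types are ordered. The cell type names are the authors' own. The 4 delta cell markers searched (Sst, Hhex, Rbp4 and Ghsr) summed to between 4.36 and 9.73 CP10K in delta cell columns, against 0.0194 to 0.324 in beta cell and 0.223 to 0.407 in alpha cell columns. The 8 beta cell markers summed to 39.9 to 46.6 CP10K in beta cell columns and to 3.21 to 9.66 in alpha and delta cell columns. The columns named neuron were not set apart by the markers used: the 3 of 4 neuronal and glial markers in the table summed to 7.15 to 8.58 CP10K in the 4 larger of them and to 9.36 to 18.8 in beta cells. In pooled columns, fewer cells that express a gene and less RNA per cell cannot be told apart. Some rarely detected genes stood at 0 throughout a group, in every one of its cell types, which is read here as missing and not as a level. This held for Adcy1 and Adcy4 in all groups but mutant CON and mutant FSK, for Adcy7 in both Ex-4 groups, and for Adcy5 in WT Ex-4.

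Across cell types, the calcium-linked forms were largely outside beta cells. Adcy8 was at 0.977 to 5.24 CP10K in the 6 delta cell columns, with a mean of 2.92 over 869 counts. In beta cells it was at 0.0232 to 0.161 CP10K and in alpha cells at 0 to 0.119, so that each delta cell column was at least 14.4-fold above the beta cell column of the same group. Adcy3 was highest in the columns named muscle, at 0.345 to 2.72 CP10K over 33 counts. Within the endocrine cells Adcy3 was low, at 0.111 to 0.238 CP10K in alpha cells, 0.0234 to 0.221 in delta cells and 0.00970 to 0.0522 in beta cells, and it was higher in alpha than in beta cells in 6 of 6 groups. Adcy1 gave 2 counts in beta, 6 in alpha and 2 in delta cells, all in mutant CON and mutant FSK, and its highest count elsewhere was 4, in the neuron column of mutant CON.

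Of the forms that beta-gamma subunits can stimulate, Adcy2 followed the cell types much as Adcy8 did. It was at 0.618 to 3.18 CP10K in delta cells (488 counts), at 0.00996 to 0.0738 in beta cells (58 counts) and at 0 to 0.111 in alpha cells (20 counts), and it was higher in delta than in beta cells in 6 of 6 groups. The columns named neuron, 2 of which had under 20000 counts, held 14 counts of Adcy2 and 8 of Adcy8. Adcy2 also gave 13 counts in each of the FSK columns named muscle (2.69 CP10K in WT and 1.49 in the mutant), against 2 counts in WT CON and 0 in the other 3. Adcy7 was found mainly in the macrophage columns. It stood there at 2.88 CP10K in untreated and 3.53 in FSK-treated WT islets and at 3.43 in mutant CON, and gave 3 counts in the small mutant FSK column. In beta, alpha and delta cells Adcy7 gave 11, 1 and 0 counts. The macrophage markers were likewise listed at 0 in both Ex-4 macrophage columns, so the missing Adcy7 values there say nothing of Ex-4. Adcy4 gave 23 counts in endothelial cells of mutant CON (1.44 CP10K) and 15 in mutant FSK (1.04 CP10K), and 1 count in beta cells.

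The forms inhibited by Gi and calcium differed widely from each other. Adcy6 was found in every endocrine cell type, at 1.88 to 2.93 CP10K in alpha cells (754 counts), 0.975 to 2.85 in PP cells (85 counts), 0.561 to 2.15 in delta cells (423 counts) and 0.395 to 1.70 in beta cells (1575 counts). It was higher in alpha than in beta cells and higher in delta than in beta cells in 6 of 6 groups. Adcy5 was sparse, with 41 counts in alpha, 13 in beta and 13 in delta cells, and was highest in the muscle and neuron columns (18 and 8 counts). Adcy9 was the most counted member in beta cells, at 2.97 to 5.53 CP10K over 6649 counts, and it was higher there than in alpha cells (1.86 to 2.96 CP10K) and delta cells (1.85 to 3.01 CP10K) in 6 of 6 groups. The excess of beta over alpha cells was 1.31-fold to 2.13-fold. PP cells held Adcy9 at 2.85 to 4.66 CP10K. Neighbouring cell types in the order of each gene's mean overlapped in their range over the 6 groups, for all 8 genes except Adcy3 between beta and ductal cells. Adcy10, the soluble form regulated by bicarbonate and calcium, gave 50 counts in beta, 15 in alpha and 16 in delta cells.

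**Figure D1:**
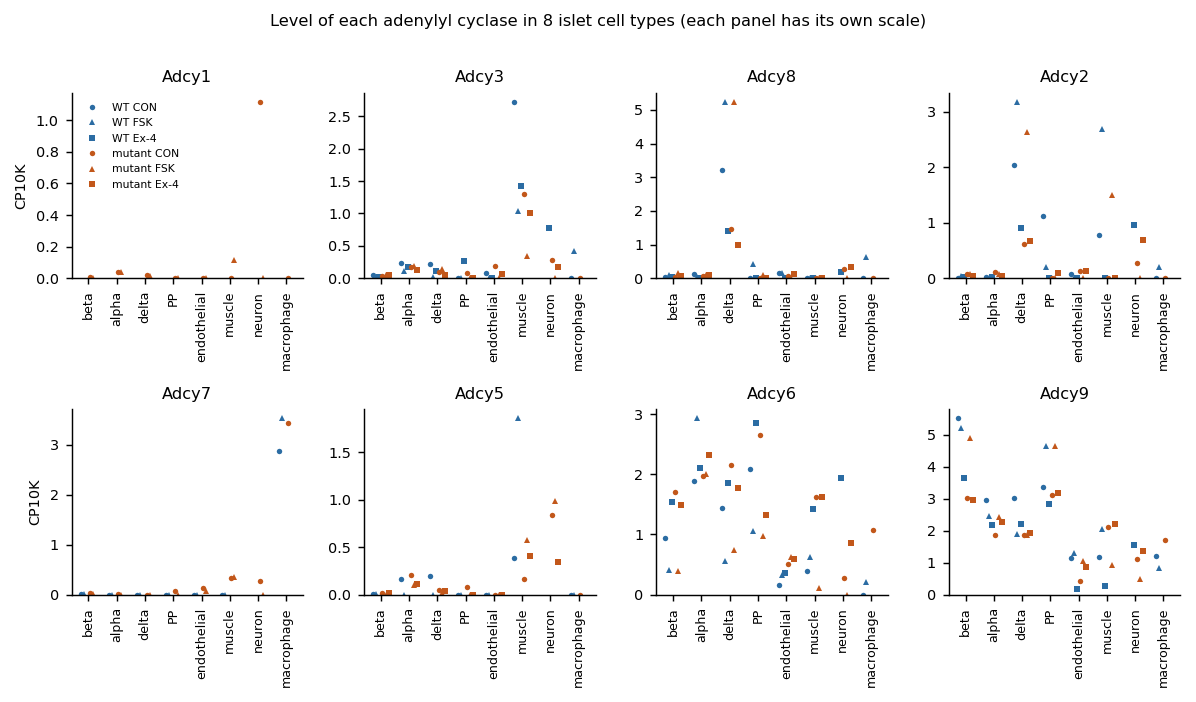
Level of each adenylyl cyclase in CP10K (vertical axis, a separate scale for each gene) in 8 cell types, with 1 point per group; blue is WT, orange is the Med14 S983A mutant, circles are CON, triangles FSK and squares Ex-4. Columns under 20000 counts, which include all ductal ones, and groups in which the gene was missing are left out; Adcy8 and Adcy2 stand out in delta cells, Adcy7 in macrophages and Adcy3 in muscle, while Adcy6 and Adcy9 lie above 0 in all endocrine columns.

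Levels can be set side by side between genes only per length, because nuclear RNA holds introns and the genes differ in span from 20.1 kb (Adcy6) to 389.6 kb (Adcy2). Per 100 kb of annotated span, Adcy6 came first in all 3 cell types, at 5.37 CP10K in beta, 10.95 in alpha and 7.06 in delta cells. Adcy9 came second at 3.11, 1.74 and 1.57. In delta cells Adcy8 followed at 1.29 and Adcy2 at 0.430, and no other member passed 0.211 in any of the 3. On this scale Adcy6 and Adcy9 together held nearly all of the summed adenylyl cyclase level in beta cells, 62.6% and 36.2%. The balance shifted between groups: Adcy6 made up 53.0% of it in untreated WT islets, 34.2% with FSK and 73.8% with Ex-4, and 78.1%, 34.1% and 76.3% in the corresponding mutant groups. In delta cells Adcy8 made up 12.2% in WT CON and 31.5% in WT FSK, and 4.91% and 28.1% in the mutant. In WT beta cells, genes close in span to Adcy6 and to Adcy9 had median log2 ratios of -0.50 and -0.02 for FSK against CON. For Ex-4 these medians were 0.40 and -0.31, and the part of gene span in the shifts was not tested. Per kb of exons the first place went to Adcy9 in beta cells (0.266 CP10K per kb, against 0.155 for Adcy6), to Adcy6 in alpha cells (0.316) and to Adcy8 in delta cells (0.325), so the order between Adcy6, Adcy8 and Adcy9 depends on the length used.

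**Figure D2:**
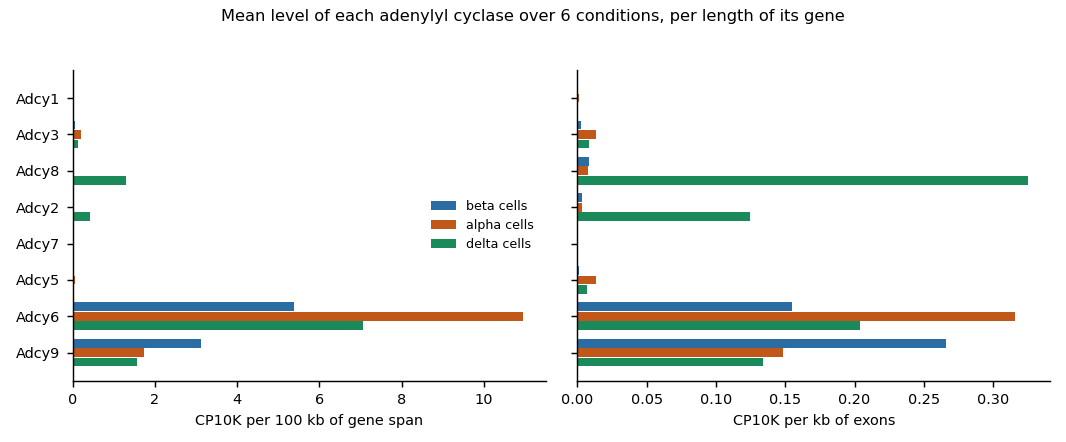
Mean level over the 6 groups for each adenylyl cyclase (rows) in beta, alpha and delta cells (colors), as CP10K per 100 kb of gene span (left) and as CP10K per kb of exons (right). Adcy6 has the longest bar per span in all 3 cell types, while per kb of exons Adcy9 leads in beta cells and Adcy8 in delta cells.

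Genes enter the ratios where the counts of the 6 columns of a cell type summed to at least 120. In beta cells (9332 genes kept) and in alpha cells (5018) Adcy6 and Adcy9 passed, and in delta cells (4452) Adcy2, Adcy6, Adcy8 and Adcy9 did. Genes past a CP10K ratio of 1.5 either way are called higher or lower. FSK against CON in WT put 0 of the 2 kept members higher and 1 lower in beta cells, where 7.14% of all kept genes were higher and 30.6% lower. The other cell types gave 1 higher and 0 lower of 2 in alpha cells (all genes: 11.9% and 17.4%) and 2 higher and 2 lower of 4 in delta cells (16.7% and 19.8%). FSK against CON in the mutant gave 1 higher and 1 lower in beta cells (22.8% and 30.2%), 0 and 0 in alpha cells (21.9% and 9.97%) and 2 and 1 in delta cells (28.9% and 18.2%). Ex-4 against CON in WT gave 1 and 1 in beta cells (25.6% and 12.8%), 0 and 0 in alpha cells (20.8% and 22.4%) and 0 and 2 in delta cells (21.6% and 18.7%). In the mutant, Ex-4 gave 0 and 0 in each of beta (3.6% and 4.63%), alpha (1.97% and 4.94%) and delta cells (4.07% and 5.51%). Mutant CON against WT CON gave 1 and 1 in beta cells (23.7% and 23.3%), 0 and 1 in alpha cells (20.3% and 27.6%) and 1 and 3 in delta cells (20.2% and 27.4%). With 2 or 4 members kept, these counts are a list of single genes and not a share to be set against all genes. The median log2 ratio of all kept genes departed most from 0 in beta cells of WT FSK, at -0.28, and setting it to 0 changed the shares there to 14.0% higher and 18.8% lower. The same step gave 20.3% and 18.1% for WT Ex-4 in beta cells (median 0.13), 17.4% and 13.9% for mutant FSK in alpha cells (median 0.11), and 22.5% and 24.2% for mutant FSK (median 0.17) and 24.9% and 22.5% for mutant CON (median -0.13) in delta cells. For mutant Ex-4 it gave 2.75% and 3.71% in alpha and 4.97% and 4.34% in delta cells. Rescaling the columns without genes linked to ribosomal RNA or mitochondria gave, where it moved the share of higher among called genes by over 10 points, 4.32% and 3.70% (mutant Ex-4) and 28.9% and 17.97% (mutant CON) in beta cells. It gave 16.3% and 14.8% (mutant FSK), 26.6% and 17.1% (WT Ex-4), 2.82% and 3.56% (mutant Ex-4) and 25.7% and 21.5% (mutant CON) in alpha cells, and 23.6% and 22.9% (mutant FSK) and 4.92% and 4.29% (mutant Ex-4) in delta cells. Removing a trend on gene span gave 13.9% and 14.3% for WT FSK and 11.1% and 11.7% for WT Ex-4 in beta cells. Among beta cell genes with at least 600 counts the shares were 8.49% and 12.7% for WT FSK, 29.6% and 20.5% for mutant FSK, 15.3% and 17.1% for WT Ex-4 and 14.9% and 30.1% for mutant CON, so which direction was more common turned in the last 3. The comparisons of a genotype share its CON column, and WT CON also enters the comparison of the genotypes, so their ratios are not independent.

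Adcy6 was lower under FSK in beta and delta cells of both genotypes. In WT beta cells it was at 0.943 CP10K in CON (284 counts), 0.410 with FSK (127 counts) and 1.55 with Ex-4 (461 counts). The mutant columns held 1.70 CP10K in CON (327 counts), 0.395 in FSK (91 counts) and 1.49 in Ex-4 (285 counts). The FSK columns were thus the lowest of the 6 and lay close to each other, and WT CON stood between them and the other 3. FSK against CON was 2.30-fold lower in WT (log2 ratio -1.20, interval -1.51 to -0.89) and 4.30-fold lower in the mutant (-2.10, -2.46 to -1.76). The larger ratio in the mutant came with a higher CON column. Short genes were on the whole lower under FSK in beta cells: the 500 kept genes closest to Adcy6 in span had a median log2 ratio of -0.50 in WT and -0.45 in the mutant.

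In WT delta cells Adcy6 was at 1.43 CP10K in CON (52 counts), 0.561 with FSK (24 counts) and 1.85 with Ex-4 (80 counts), and at 2.15 (122 counts), 0.744 (47 counts) and 1.77 (98 counts) in mutant CON, FSK and Ex-4. Again the FSK columns were the lowest, 2.56-fold below CON in WT (log2 ratio -1.35, -2.12 to -0.63) and 2.89-fold below it in the mutant (-1.53, -2.05 to -1.04). In alpha cells Adcy6 was past 1.5-fold lower in neither genotype. It was at 1.88 CP10K in WT CON and 2.93 in WT FSK, each with 79 counts, at 2.10 in WT Ex-4, and at 1.98, 2.00 and 2.32 in mutant CON, FSK and Ex-4. The WT FSK column was the highest, 1.56-fold above WT CON (log2 ratio 0.64, 0.17 to 1.11), and the mutant ratio was 0.02 (-0.31 to 0.34). The 7 alpha cell markers moved with the groups: they summed in alpha cells to 118.8 CP10K in WT CON, 139.9 with FSK and 50.4 with Ex-4, and to 48.9, 113.5 and 47.8 in the mutant, and their part in the alpha cell values was not tested. PP cells had few counts, yet their FSK columns were again the lowest of each genotype: 1.05 CP10K in WT FSK (5 counts) against 2.09 in WT CON (13 counts), and 0.975 in mutant FSK (9 counts) against 2.66 in mutant CON (34 counts).

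**Figure D3:**
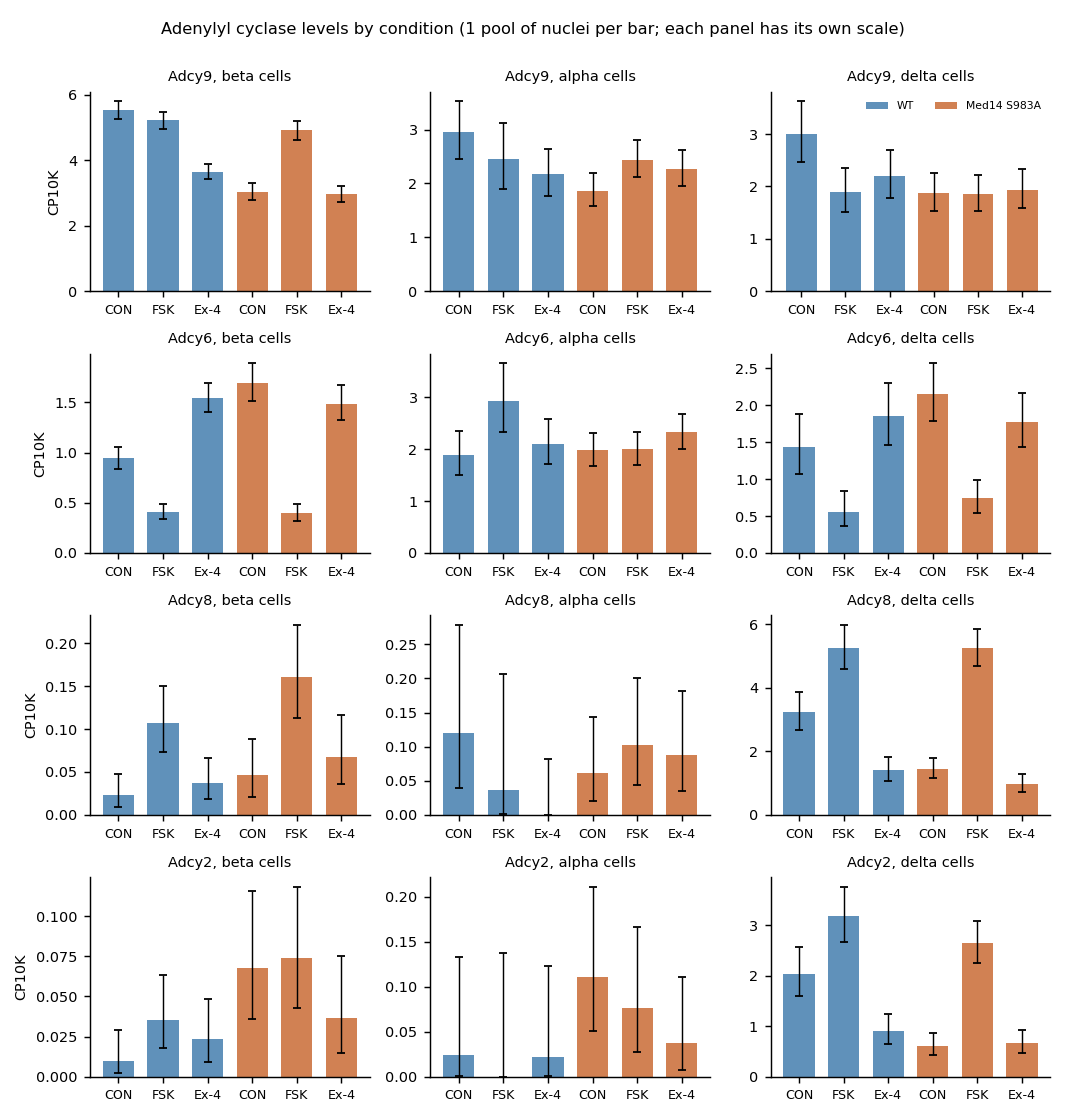
CP10K (vertical axis, a separate scale for each panel) of Adcy9, Adcy6, Adcy8 and Adcy2 (rows) in beta, alpha and delta cells (columns of panels) for the 3 WT groups (blue) and the 3 mutant groups (orange); each bar is 1 pooled column and the error bars are exact 95% Poisson intervals of its count. The FSK bars of Adcy6 are the lowest in beta and delta cells but not in alpha cells, and the FSK bars of Adcy8 and Adcy2 are the highest in delta cells.

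Adcy8 and Adcy2 were higher under FSK in delta cells. In WT, Adcy8 was at 3.23 CP10K in CON (117 counts), 5.24 with FSK (224 counts) and 1.41 with Ex-4 (61 counts), and at 1.45 (82 counts), 5.24 (331 counts) and 0.977 (54 counts) in mutant CON, FSK and Ex-4. The FSK columns of the genotypes agreed to 3 digits, while the CON columns did not, so the ratio was 1.62-fold in WT (log2 0.70, 0.37 to 1.03) and 3.62-fold in the mutant (interval 2.84 to 4.67, log2 1.86). Adcy2 in WT was at 2.04 CP10K in CON (74 counts), 3.18 with FSK (136 counts) and 0.903 with Ex-4 (39 counts), and at 0.618 (35 counts), 2.64 (167 counts) and 0.670 (37 counts) in the mutant groups. FSK was above CON by 1.56-fold in WT (log2 0.64, 0.22 to 1.07) and by 4.28-fold in the mutant (log2 2.10, 1.56 to 2.67). Kept genes of similar span had medians of 0.04 (Adcy8) and 0.00 (Adcy2) in WT, and of 0.48 and 0.54 in the mutant. The delta cell markers were also higher in the FSK columns of delta cells: they summed to 9.73 CP10K in WT FSK against 5.38 in WT CON, and to 7.68 in mutant FSK against 4.36 in mutant CON. The part of this in the Adcy8 and Adcy2 values was not tested.

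Adcy9 was within its counting interval of CON under FSK in WT beta cells. There it was at 5.53 CP10K in CON (1665 counts), 5.22 with FSK (1614 counts) and 3.65 with Ex-4 (1087 counts), and at 3.03 (584 counts), 4.91 (1131 counts) and 2.97 (568 counts) in mutant CON, FSK and Ex-4. The columns fell into a higher set of WT CON, WT FSK and mutant FSK and a lower set of the other 3. The log2 ratio of FSK to CON was -0.08 (-0.18 to 0.02) in WT and 0.69 (0.55 to 0.84, 1.62-fold) in the mutant, where kept genes of similar span had a median of 0.46. The mutant ratio was under 1.5-fold on rescaled totals and with the span trend removed. In alpha cells these ratios were -0.27 (-0.73 to 0.17) and 0.39 (0.08 to 0.71). In delta cells Adcy9 was at 3.01 CP10K in WT CON and at 1.85 to 2.20 in the other 5 columns. FSK was therefore 1.59-fold below CON there in WT (log2 ratio -0.67, -1.10 to -0.24), and in the mutant the ratio was -0.01 (-0.41 to 0.38).

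Ex-4 went with Adcy6 and Adcy9 in opposite directions in WT beta cells. Adcy6 was 1.64-fold above WT CON (log2 ratio 0.71, 0.50 to 0.93) and Adcy9 was 1.52-fold below it (-0.60, -0.71 to -0.49). The genes closest in span differed in the same directions, with medians of 0.40 for Adcy6 and -0.31 for Adcy9, and neither gene passed 1.5-fold once the span trend was removed. In mutant beta cells the Ex-4 ratios were -0.19 (-0.42 to 0.04) for Adcy6 and -0.03 (-0.20 to 0.14) for Adcy9. In WT delta cells Ex-4 was 2.29-fold below CON for Adcy8 (log2 ratio -1.19, -1.66 to -0.73) and 2.26-fold below it for Adcy2 (-1.18, -1.78 to -0.60), the opposite direction to FSK. The genes closest in span had medians of -0.41 and -0.57 under Ex-4. With the span trend removed Adcy8 was at -0.76, and Adcy2 at -0.54, under 1.5-fold. In mutant delta cells the ratio was -0.57 (-1.09 to -0.05) for Adcy8 and 0.12 (-0.59 to 0.82) for Adcy2. No kept member passed 1.5-fold under Ex-4 in alpha cells, where Adcy6 had ratios of 0.16 and 0.23 and Adcy9 of -0.45 and 0.28 in WT and mutant. Whether the Ex-4 ratios of the genotypes differ was not tested, since there is 1 column for each.

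In the absence of treatment, mutant beta cells held more Adcy6 and less Adcy9 than WT beta cells. The ratio of mutant CON to WT CON was 1.80-fold for Adcy6 (log2 0.85, 0.62 to 1.08), and Adcy9 was 1.82-fold lower (log2 -0.87, interval of the fold 1.66 to 2.01). The genes closest in span had medians of 0.25 and -0.52, and neither gene passed 1.5-fold with the span trend removed. Genes of other islet cells also differed between the beta cell columns, but not in 1 direction. Gcg, the glucagon gene, was at 0.375 CP10K in untreated WT and 1.25 in untreated mutant islets and Sst at 0.0299 and 0.130. The 7 alpha cell markers, Gcg among them, summed there to 7.41 and 4.76 CP10K, and Rbp4 was at 0.0232 and 0.0104. The summed beta cell markers were 46.6 and 39.9. The part of other islet cells in the Adcy6 and Adcy9 values was not tested. In delta cells Adcy2 was 3.30-fold lower in the mutant (-1.72, -2.35 to -1.13), Adcy8 2.23-fold lower (-1.16, -1.58 to -0.74) and Adcy9 1.61-fold lower (-0.68, -1.08 to -0.29). The medians of similar genes were -0.75, -0.64 and -0.40. For Adcy9 the log2 ratio was -0.56 both with the median set to 0 and on rescaled totals, under the 1.5-fold line. With the span trend removed Adcy8 was at -0.52 and Adcy9 at -0.26, both under that line, and Adcy2 was at -0.89. Adcy6 lay just past the 1.5-fold line in delta cells (log2 ratio 0.59, 0.11 to 1.08), at the level of genes of its span (median 0.60), and was at -0.027 with the span trend removed. In alpha cells the ratios were 0.07 (-0.33 to 0.48) for Adcy6 and -0.67 (-1.02 to -0.31) for Adcy9, which passed 1.5-fold neither with the median set to 0 nor on rescaled totals. Summed delta cell markers were 4.36 CP10K in mutant CON and 5.38 in WT CON delta cells.

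**Figure D4:**
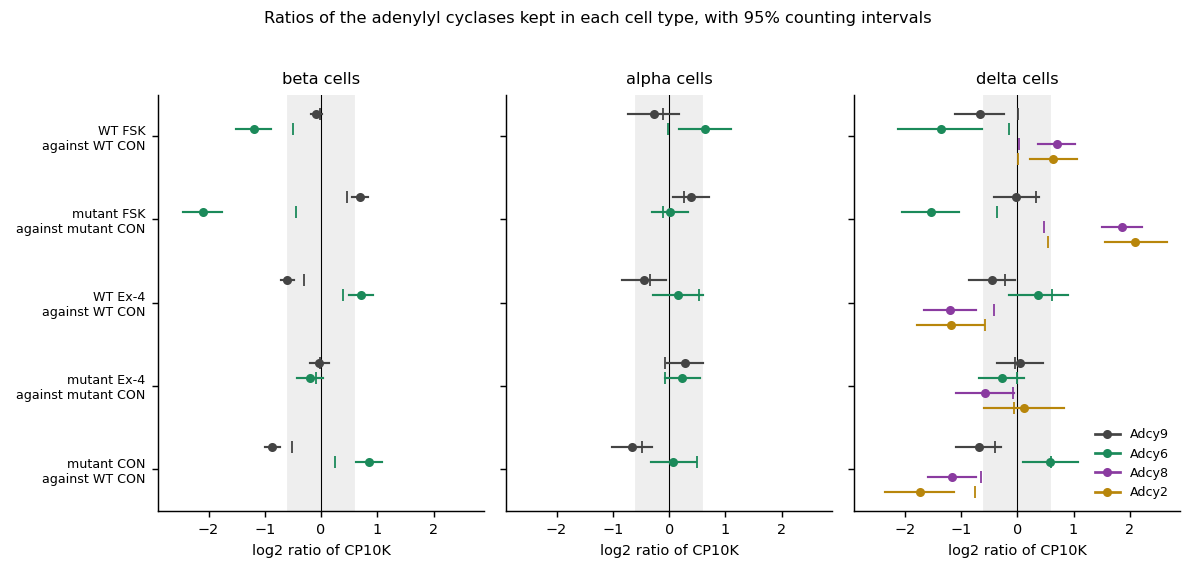
Log2 ratio of CP10K (horizontal axis) for the adenylyl cyclases kept in beta, alpha and delta cells in 5 comparisons (rows); dots are the ratios, lines their 95% counting intervals, short vertical ticks the median of the 500 kept genes closest in span, and the gray band ratios under 1.5-fold. Adcy6 lies left of the band under FSK in beta and delta cells of both genotypes, and Adcy8 and Adcy2 lie right of it under FSK in delta cells.

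Adcy8 also differed between the beta cell columns, at a level too low to be kept there (110 counts in all). It gave 7 counts in untreated, 33 in FSK and 11 in Ex-4 columns of WT, 9 in mutant CON, 37 in mutant FSK and 13 in mutant Ex-4. The FSK columns were the highest, 4.59-fold above CON in WT (interval 2.00 to 12.3) and 3.44-fold in the mutant (1.63 to 8.10). The delta cell markers were read in the same columns. Sst gave 9, 4 and 20 counts in CON, FSK and Ex-4 of WT and 25, 12 and 37 in the mutant, Rbp4 gave 7, 1 and 4 and 2, 0 and 18, and Hhex gave at most 7 counts in any beta cell column. Ghsr was at 0 in all 6 beta cell columns, and in delta cells it was above 0 in 3 columns only, with at most 6 counts. These marker counts are small, and those of Sst and Rbp4 were fewer in FSK than in CON. As a share of the delta cell level, Adcy8 in beta cells was 0.720% in CON and 2.04% with FSK in WT, and 3.23% and 3.06% in the mutant. For Sst, WT had shares of 1.04% in CON and 0.212% with FSK, and the mutant had 4.403% and 0.962%. The part of delta cell RNA in the beta cell counts of Adcy8 was not tested. Adcy2 gave 3 counts in WT CON and 11 in WT FSK beta cells, with a ratio of 3.57 (0.943 to 19.9), and 13 and 17 in the mutant.

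**Figure D5:**
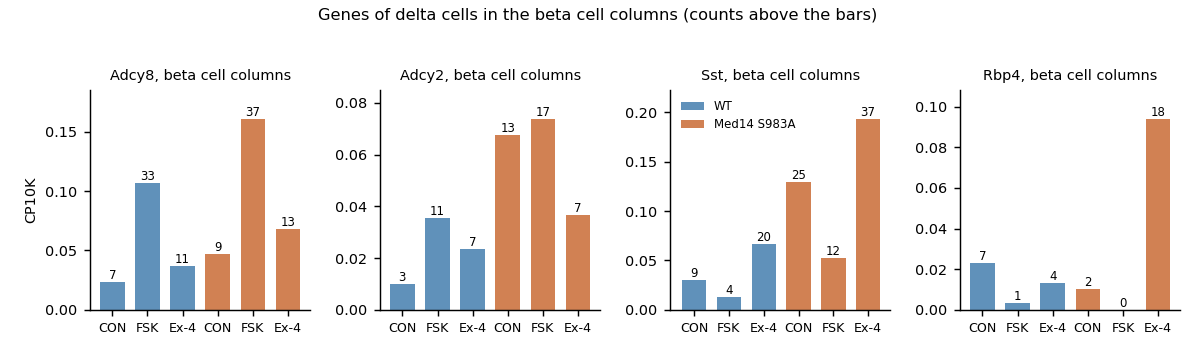
CP10K in the beta cell columns (vertical axis, a separate scale for each gene) of Adcy8, Adcy2 and the delta cell markers Sst and Rbp4 for the 3 WT (blue) and 3 mutant (orange) groups, with the number of counts above each bar. The Adcy8 bars are highest under FSK, where the Sst and Rbp4 bars are below those of CON.

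The genes lie apart in the genome, except that Adcy6 and Adcy8 share chromosome 15 and Adcy5 and Adcy9 chromosome 16. In GRCm39 Adcy6 is at chr15:98487854-98507957 (minus strand), Adcy8 at chr15:64568933-64794987 (minus), Adcy9 at chr16:4102752-4238428 (minus) and Adcy2 at chr13:68758255-69147818 (minus). Adcy8 overlaps no other annotated gene. Adcy1, Adcy2, Adcy5, Adcy6 and Adcy9 overlap 1, 9, 4, 1 and 3 annotated genes, none of which is in the table. Adcy3 overlaps Cenpo and Adcy7 overlaps Brd7 on the opposite strand. Because the use of strand in the authors' counting is not given, reads of overlapping genes may be mixed. Promoters were read from RefSeq (GRCm38.p6), which gave 9 of them for 6 members, Adcy1, Adcy2, Adcy3, Adcy5, Adcy7 and Adcy9. They were searched from 250 bases before to 50 after the start for the cAMP response element TGACGTCA and for its core TGACG, which the full site contains, on both strands. None held the full site, which is in 1.79% of all 32851 promoters of this length, and 2 held the core, which is in 20.8%. They are 1 of the 3 Adcy7 promoters, where it begins 28 bases before the start on the opposite strand, and that of Adcy9, where it begins 24 bases before the start. A match of letters is a description and not a shown binding site. The 250 bases before the start of Adcy9 (chr16:4420499-4420748, minus strand, GRCm38.p6), with the core in capitals, and of Adcy2 (chr13:68999542-68999791, minus strand), the member with the largest FSK ratio in mutant delta cells and no core in its window, are shown because these genes carry results above.
Adcy9: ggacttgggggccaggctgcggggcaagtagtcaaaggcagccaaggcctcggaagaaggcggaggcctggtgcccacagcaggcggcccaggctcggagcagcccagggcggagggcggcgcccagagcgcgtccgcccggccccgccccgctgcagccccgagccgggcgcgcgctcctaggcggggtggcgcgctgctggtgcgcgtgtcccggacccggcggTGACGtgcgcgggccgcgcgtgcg
Adcy2: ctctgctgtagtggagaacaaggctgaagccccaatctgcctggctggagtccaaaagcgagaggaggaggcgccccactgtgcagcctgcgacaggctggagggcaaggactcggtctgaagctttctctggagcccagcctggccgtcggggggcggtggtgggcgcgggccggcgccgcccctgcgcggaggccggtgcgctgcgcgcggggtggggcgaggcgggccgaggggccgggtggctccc

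The genes whose pattern over the 18 beta, alpha and delta cell columns was most like that of the leading member were sought among 4061 genes kept in all 3 cell types. For Adcy9 they were Syt14 (Pearson r of log2(CP10K + 1) 0.98), the axon guidance receptor Robo1 (0.97) and Plcxd3 (0.96). For Adcy8 they were Rtl4 (0.98), Igsf5 (0.97) and the synaptotagmin Syt1 (0.97). The 18 points share 6 groups and 3 cell types, and the part of the cell type differences in these correlations was not tested. Mean Syt14 was 2.57 CP10K in beta, 1.44 in alpha and 1.28 in delta cells. Mean Robo1 was 3.88, 0.626 and 0.504 in these cell types, and mean Rtl4 was 0.483, 0.339 and 11.2.

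The other genes of the pathway are given for beta cells. Gene span was not taken into account in any of the lists that follow. Beta cell genes closest in span to Adcy2, the longest member, had median log2 ratios of 0.06 in WT FSK, 0.75 in mutant FSK and -0.60 in WT Ex-4. For genes closest to Adcy6, the shortest, these medians were -0.50, -0.45 and 0.40. The part of gene span in the list counts was not tested. Of 12 listed receptors coupled to Gs, 8 were in the table and 5 were kept, and 4 were lower and 0 higher in WT FSK (median log2 ratio -0.77, against -0.28 over all kept genes, of which 30.6% were lower). In mutant FSK 3 were lower and 0 higher (all kept genes: 30.2% lower). Glp1r, the receptor of Ex-4, was at 9.39 CP10K in WT CON and 5.55 in WT FSK (ratio -0.76, -0.85 to -0.67), and at 7.34 and 5.27 in the mutant (-0.48, -0.59 to -0.37). Gcgr, the glucagon receptor, went from 89 counts in WT CON to 25 in WT FSK (-1.87, -2.57 to -1.22) and from 89 to 19 in the mutant (-2.49, -3.28 to -1.76). Vipr2 (-1.12, -1.75 to -0.51) was lower too in WT, and Vipr1 had a ratio of 0.41 (0.09 to 0.73). Under Ex-4 in WT 1 of the 5 was higher and 0 were lower (all kept genes: 25.6% and 12.8%). The higher one was Gcgr (0.89, 0.51 to 1.28), and Glp1r was at -0.29 (-0.37 to -0.21). In alpha cells 3 of these receptors were kept and in delta cells 2, too few to set against a share. Glp1r and Gipr were lower under FSK there in both genotypes, and Vipr1 was higher in mutant FSK alpha cells. Of all kept genes, 17.4% (WT) and 9.97% (mutant) were lower in alpha and 19.8% and 18.2% in delta cells. Of 12 listed receptors coupled to Gi 8 were in the table and 6 were kept. In WT FSK 2 of the 6 were higher and 2 lower (all kept genes: 7.14% and 30.6%). Higher were Adra2a (1.41, 0.63 to 2.25) and Gabbr2 (1.04, 0.97 to 1.11), and lower were Gabbr1 (-1.33, -1.77 to -0.90) and Adora1 (-0.74, -1.25 to -0.24).

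Among 17 G protein subunits and their chaperones 14 were kept in beta cells, with 3 higher and 4 lower in WT FSK (all kept genes: 7.14% and 30.6%) and 8 higher and 4 lower in mutant FSK (22.8% and 30.2%). Gnas, which codes for the Gs alpha subunit, was at 2.09 CP10K in WT CON and 12.7 in WT FSK (log2 ratio 2.60, 2.48 to 2.72), at 3.15 in mutant CON and 15.8 in mutant FSK (2.33, 2.20 to 2.45), and at 2.27 in WT Ex-4 (0.12, -0.04 to 0.28). It was thus the gene of its list with the largest FSK ratio in WT, followed by Gng12 (0.86, 0.81 to 0.91), and Gnb2 (-1.72, -2.55 to -0.96) and Ric8a (-1.26, -2.15 to -0.43) had the smallest. Under Ex-4 in WT 2 were higher and 4 lower (all kept genes: 25.6% and 12.8%). Higher were Gnb2 (1.60, 1.17 to 2.04) and Ric8a (0.69, 0.11 to 1.28), and Gnai1 (-1.94, -2.83 to -1.13) and Gng2 (-0.93, -1.67 to -0.22) were among the lower.

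On the side of cAMP breakdown, 11 of 16 listed phosphodiesterases were kept in beta cells, with 4 higher and 3 lower in WT FSK (all kept genes: 7.14% and 30.6%) and 7 higher and 1 lower in mutant FSK (22.8% and 30.2%). In WT, Pde10a was at 30.9 CP10K in CON, 106.7 with FSK and 26.5 with Ex-4, and at 22.5 and 105.6 in mutant CON and FSK (log2 ratio of FSK to CON 1.79, 1.76 to 1.82, in WT and 2.23, 2.18 to 2.28, in the mutant). Pde1c, a calcium and calmodulin dependent form, had a ratio of 1.57 (1.47 to 1.67) in WT FSK, and Pde1a (-1.76, -2.95 to -0.71) and Pde4c (-1.09, -1.64 to -0.55) had the smallest. Under Ex-4 in WT 0 were higher and 6 lower (all kept genes: 25.6% and 12.8%), with Pde3a (-2.11, -2.52 to -1.73) and Pde3b (3.68 CP10K in CON and 1.83 with Ex-4, interval of the log2 ratio -1.16 to -0.86) the lowest. In Ex-4 against CON of the mutant 1 of 11 was lower (all kept genes: 4.63%).

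Of 19 listed genes for PKA subunits, their anchors and inhibitors, and Epac, 17 were kept in beta cells, with 2 higher and 2 lower in WT FSK, where 7.14% of all kept genes were higher and 30.6% lower. Prkar1a, a regulatory subunit of PKA, was higher (1.38, 1.19 to 1.57), as was the anchor Akap6 (0.71, 0.53 to 0.89), and the catalytic subunit gene Prkaca (-0.90, -1.34 to -0.47) and Akap7 (-0.71, -1.05 to -0.37) were lower. Under Ex-4 in WT 2 were higher, Akap5 (1.37, 0.51 to 2.31) and Akap9 (0.74, 0.64 to 0.84), and 6 were lower (all kept genes: 25.6% and 12.8%), among them Prkar2b (-0.92, -1.22 to -0.62) and Pkib (-0.81, -1.35 to -0.29). All 14 genes listed under calcium signalling, which include protein kinase C genes, were kept. Of these, 2 were higher and 2 lower in WT FSK (all kept genes: 7.14% and 30.6%). Camk2d (1.25, 1.08 to 1.41) and Prkcb (0.82, 0.75 to 0.89) were higher there. Under Ex-4 in WT, Calm3, which codes for calmodulin, was higher (1.06, 0.57 to 1.56), while Ppp3ca, a calcineurin subunit, was lower (-0.99, -1.21 to -0.78). Of 8 other cyclase genes listed (Adcy4, Adcy10 and guanylyl cyclases) 3 were kept, all of them guanylyl cyclase genes and too few to set against a share: Gucy2c was higher (0.61, 0.33 to 0.89) and Npr1 (-1.93, -2.70 to -1.22) and Gucy1a2 (-0.67, -1.15 to -0.19) were lower in WT FSK.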

How the data were processed

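Islet nuclei were sorted by DAPI, barcoded by combinatorial indexing (Parse Evercode) and sequenced as 8 sublibraries. The authors processed reads with split-pipe against mm39, removed nuclei at the extremes of counts and genes or with over 1% mitochondrial reads, and integrated and annotated the rest in Seurat. The annotation release, the use of strand and whether pooled counts were raw or corrected are not given in the sources used here. The deposited table holds natural log values made by the authors, ln(1 + CP10K). The log was undone and counts were recovered: the tolerance was 0.001 count, and 100% of the table met it. Numbers of nuclei were not analysed here.

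No column belongs to a single GEO sample, so all samples stayed ungrouped and columns were used as pools named by their headers. Genes with at least 120 summed counts per cell type were kept, ratios of CP10K were taken without a pseudocount, and 1.5-fold was the threshold. Count intervals are exact Poisson and ratio intervals exact conditional binomial (95%), and for a count of 0 the limit is 3 counts. A gene at 0 throughout a group was left out of that group's ratios. Spans and exon lengths came from GENCODE M39 (16531 genes matched by name, 831 not). Beyond the 8 members, the genes named were the up to 2 largest and 2 smallest ratios of each listed pathway in beta cells for WT FSK and WT Ex-4, and the 3 genes most like the leading member of each cell type. Not every gene that the rule names is reported here. Genes outside that rule are counterparts or markers named because a result turns on them, chosen after their values were seen. Members and lists were chosen with earlier results of these data known. Alternatives were log2(CP10K + 1) differences, 2-fold, centring of the ratios on a median of 0, new column totals that leave out 18 mitochondrial or ribosomal RNA linked genes, a lowess trend on span removed (span 0.3), at least 600 counts or no filter, summed counts for levels, and each group left out. The ratio code was tested on simulated data. Intervals used scipy 1.17.1, the lowess trend statsmodels 0.14.6, figures matplotlib 3.10.9, and tables pandas 2.3.3 and numpy 2.4.6 under Python 3.11.15.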

Additional observations from a re-analysis of the deposited data

Results flagged for a closer look

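The FSK ratio of Adcy6 in alpha cells stood apart from that in beta and delta cells of the same islets. The log2 ratio of FSK to CON was 0.64 in WT alpha cells, against -1.20 in WT beta cells and -1.35 in WT delta cells. In the mutant it was 0.017 in alpha cells, against -2.10 in beta cells and -1.53 in delta cells. The difference between cell types was not tested, because each cell type has 1 column per group, and the alpha cell value of the mutant lies within its counting interval of 0 and changes sign with the processing, from -0.12 to 0.15.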

How the results depend on the processing

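Of 40 log2 ratios of kept members, 40 of 40 moved by less than their counting interval on rescaled totals and 38 of 40 with the median set to 0, 31 of 40 as differences of log2(CP10K + 1), and 22 of 40 after removing the trend on gene span. Under that last setting 17 moved and 1 reversed: Adcy6 in delta cells of mutant CON against WT CON, from 0.59 to -0.027. Further ratios, all with counting intervals that included 0, changed sign across the settings. Among them were those of Adcy6 in WT Ex-4 alpha cells (0.16, lowest -0.35) and WT Ex-4 delta cells (0.37, lowest -0.24). In alpha cells of mutant CON against WT CON Adcy6 went from 0.07 to as low as -0.42. The FSK ratio of Adcy6 in beta cells kept its sign, between -1.21 and -0.46 in WT and between -2.25 and -0.95 in the mutant. In mutant delta cells the FSK ratio ran from 1.35 to 1.86 for Adcy8 and from 1.17 to 2.10 for Adcy2.

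Counts of members past the threshold were small, and many moved. At 2-fold, members higher went to 0 in WT FSK alpha and delta cells, mutant FSK and WT Ex-4 beta cells, and mutant CON beta and delta cells. Members lower went to 0 in WT Ex-4 beta cells and mutant CON beta and alpha cells, and to 1 in WT FSK delta cells. Members lower in mutant CON delta cells went from 3 to 2 at 2-fold, as log2(CP10K + 1), with the median set to 0 and on rescaled totals. As differences of log2(CP10K + 1), members higher went to 0 in the same 6 cases, and members lower to 0 in WT FSK and WT Ex-4 beta cells and mutant CON alpha cells and to 1 in WT FSK delta cells. With the span trend removed, members higher went to 0 in mutant FSK and WT Ex-4 beta cells and mutant CON beta and delta cells. Members lower went to 0 in WT Ex-4 and mutant CON beta cells and mutant CON alpha cells, and to 1 in WT Ex-4 and mutant CON delta cells. On rescaled totals, members higher in mutant FSK beta cells and members lower in WT Ex-4 beta and mutant CON alpha cells went to 0, and with the median set to 0 members lower in mutant CON alpha cells went to 0. With at least 600 counts Adcy8 and Adcy9 were the members left in delta cells. Members higher and lower there were 1 and 1 of 2 in WT FSK (all genes: 17.0% and 16.4%) and 1 and 0 in mutant FSK (32.6% and 19.2%). They were 0 and 1 in WT Ex-4 (14.4% and 29.5%) and 0 and 2 in mutant CON (18.1% and 38.7%). With no filter, members of a few counts are admitted, and the shares of all genes change too. In beta cells members higher and lower were 2 and 3 of 7 in WT FSK (all genes: 8.09% and 41.4%). They were 3 and 3 of 8 in mutant FSK (20.1% and 38.1%) and 3 and 2 of 5 in WT Ex-4 (32.2% and 11.6%). In mutant Ex-4 they were 1 and 1 of 6 (7.21% and 6.84%), and in mutant CON 5 and 1 of 7 (32.5% and 20.0%). In alpha cells members higher and lower were 1 and 2 of 5 in WT FSK (19.3% and 26.0%) and 1 and 1 of 7 in mutant FSK (25.9% and 19.2%). They were 0 and 1 of 5 in WT Ex-4 (30.5% and 21.9%) and 0 and 2 of 6 in mutant Ex-4 (10.7% and 15.5%). In mutant CON they were 1 and 2 of 6 (27.9% and 26.3%). In delta cells members higher and lower were 2 and 4 of 6 in WT FSK (18.6% and 31.5%) and 3 and 2 of 7 in mutant FSK (25.1% and 30.0%). They were 0 and 3 of 5 in WT Ex-4 (34.8% and 16.9%) and 0 and 1 of 6 in mutant Ex-4 (15.8% and 14.8%). In mutant CON they were 1 and 5 of 6 (30.8% and 25.3%). Apart from the filters, which change the genes counted, the cause was not tested. No paired analysis was possible because each group has 1 pooled column per cell type. In beta and alpha cells members other than Adcy6 and Adcy9 were under 120 summed counts, so the ratios given for Adcy8 and Adcy2 in beta cells rest on few counts.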
